A study of Mus musculus with 6 samples.

Results

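Mitochondrial tRNA-Val, with the anticodon TAC, gave 418 of the 38798 sequences in a table of tRNA-derived small RNAs (tsRNAs) from mouse pulmonary artery smooth muscle cells. A sequence was taken when every annotation in the table assigned it to this tRNA, and the same 418 were found when 1 such annotation was enough. The tRNA, annotated as mt_tRNA-Val-TAC, was chosen by the difference in its fragment levels and end positions between hypoxia and normoxia in these same libraries. All hypoxia and normoxia values below are therefore descriptions, and no call from a fit is read as a test of that difference.

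The cells were primary cultures of Wild type genotype. In the hypoxia group they were kept at 3% O2 for 24 hours, and in the normoxia group they stayed in standard culture. Each group had 3 replicates that the design text calls biological, and the Pandora-seq method was used, which strips modifications from RNA by enzymes so that adapters and reverse transcriptase are not blocked. The table holds tRNA fragments only, so the cell type could not be checked against marker genes.

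Mitochondrial tRNA-Val brings valine to the ribosomes inside mitochondria. Its gene is transcribed as one stretch of a long RNA, between both mitochondrial rRNA genes, and is freed by RNase P at its 5' end and by ELAC2 at its 3' end. TRNT1 then adds the bases CCA, which mammalian mitochondrial tRNA genes do not encode, and VARS2 attaches valine to the last A. In human mitochondria this tRNA is also a structural part of the ribosome's large subunit.

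The gene, mt-Tv (ENSMUSG00000064338.1), lies at chrM:1025-1093 on the plus strand of mm10 in the GENCODE M21 annotation. It starts 1 base after mt-Rnr1, which covers chrM:70-1024, and ends 1 base before mt-Rnr2, which covers chrM:1094-2675. The gene encodes 69 bases, and the mature tRNA has 72 with CCA. Positions below count from 1 at the first base, so that the anticodon is at 33 to 35 and the added tail at 70 to 72. The genome continues with the bases act after the gene. A fragment with CC or CCA directly after position 69 therefore cannot be read from the gene itself. The mature sequence and some of the fragments named below are shown 5' to 3', with capitals for bases of the added tail. Fragment names give the first and last position.
mt-Tv with tail: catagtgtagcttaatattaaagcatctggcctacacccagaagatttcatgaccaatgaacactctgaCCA
56-72: aatgaacactctgaCCA
56-71: aatgaacactctgaCC
55-72: caatgaacactctgaCCA
55-71: caatgaacactctgaCC
48-67: tcatgaccaatgaacactct
50-67: atgaccaatgaacactct
50-66: atgaccaatgaacactc
53-69: accaatgaacactctga

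The first 4 fragments were chosen because they come in pairs that differ only by the last A. The other 4 end inside the encoded part, and 3 of them before its last base. These 4 are among the 5 fragments called in the fit with the replicate number as a block, given below. More abundant fragments such as 49-67 and 50-65 are not shown. A minimum free energy fold of the mature sequence by RNAfold is a cloverleaf. In it the T stem pairs positions 48 to 51 with 57 to 60, the T loop is 52 to 56, and the acceptor stem pairs 4 to 8 with 61 to 65 and 1 and 2 with 68 and 67. Fragments 55-71, 55-72, 56-71 and 56-72 thus start in the last bases of the T loop, whereas 50-67 and its neighbours start in the 5' strand of the T stem and stop in the 3' strand of the acceptor stem.

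The table held 510519, 2563749 and 1713960 counts in hypoxia replicates 1, 2 and 3, and 330787, 2217965 and 1629726 in normoxia replicates 1, 2 and 3. Both libraries numbered 1 stood apart. Fragments of the 22 mitochondrial tRNAs made up 15.3%, 5.999% and 6.04% of the counts in hypoxia, and 14.4%, 6.63% and 7.33% in normoxia. Values per library follow the order of replicates 1, 2 and 3. Each hypoxia library was also set against the normoxia library of its number, a pairing that rests on replicate 1. For replicates 2 and 3 alone, deviations of same-numbered libraries from the group means correlated at -0.03. The sources do not say what the number stands for. In the bulk cultures, less RNA per cell and fewer cells with that RNA cannot be told apart.

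Mitochondrial tRNA-Val held 276565 counts over the 6 libraries, the most of any mitochondrial tRNA. Its level was 57179, 30629 and 32784 CPM (counts scaled to a library total of 1e+06) in hypoxia, and 37402, 28078 and 23324 CPM in normoxia. The mean was 40197 ± 14746 CPM in hypoxia and 29601 ± 7161 CPM in normoxia (SD, n = 3 each). Each hypoxia library was above its normoxia partner, by 1.53, 1.09 and 1.41-fold, but the ranges of the groups overlapped. As a part of all mitochondrial tRNA counts it took 37.5%, 51.1% and 54.3% in hypoxia, and 26.04%, 42.3% and 31.8% in normoxia.

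Most of these counts came from few sequences. The most abundant pair, 56-71 and 56-72, held 59.3% of the tRNA's counts, and the 10 most abundant held 87.9%. A count in every library was found for 68 of the 418 sequences, at least 10 counts in total for 169, and a single count for 78. By the table's classes, 360 were internal fragments, 31 ended on the last encoded base (3' end without CCA), 21 started at the first base (5' end) and 6 ended in CCA. Fragments ending in C or CC of the tail are in the internal class. Exact matches to the gene with CCA numbered 409, and the other 9 differed from it by 1 base and held 0.0344% of the counts. Of the 418, 4 short sequences (57-72, 58-72, 57-71 and 34-48), with 4.85% of the counts, are also present in another annotated transcript.

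Nearly all fragments came from the 3' end of the tRNA. Those ending at positions 64 to 72 held 98.7%, 99.2% and 99.2% of the tRNA's counts in hypoxia, and 97.8%, 99.0% and 98.3% in normoxia. Fragments starting at position 44 or earlier, which include all that carry the anticodon, held 2.71%, 1.69% and 1.58% in hypoxia, and 2.80%, 1.31% and 2.11% in normoxia. The fragments fell into 2 populations by start and end, as the map of first and last bases shows. The lengths held in the table partly set this split. No sequence is shorter than 15 nt, so fragments that start at 56 or later can end only in the tail. No mitochondrial fragment with 2 or 3 tail bases is over 18 nt, so starts at 45 to 51 cannot appear with such a tail. Whether the 2 populations reflect separate cuts was not tested.

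**Figure D1:**
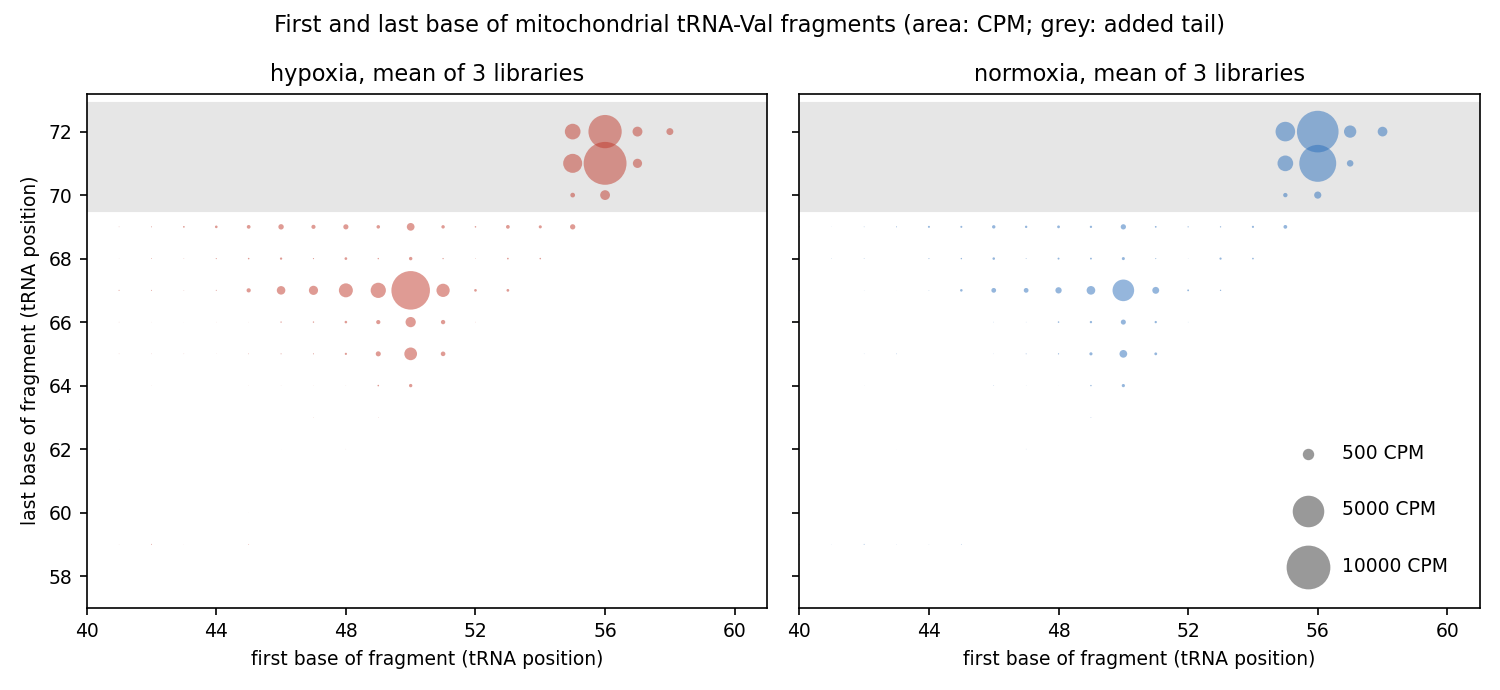
First base (x axis) and last base (y axis) of mitochondrial tRNA-Val fragments, as positions in the tRNA; circle area is the mean CPM of the 3 hypoxia libraries (left) or the 3 normoxia libraries (right), and grey marks the added tail at 70 to 72. Most fragments that start at 55 to 58 end in the tail, and fragments that start at 45 to 51 end mostly at 67. No sequence in the table is shorter than 15 nt, so starts at 56 or later can end only in the tail.

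The first population started at 55 to 58 and ended in the tail, at 70 to 72. It reached 16007, 23821 and 27592 CPM in hypoxia, and 25089, 25029 and 20470 CPM in normoxia. The groups overlapped, and the pairs differed in direction, with hypoxia at 0.638, 0.952 and 1.35 times its partner. This population was the larger one in replicates 2 and 3 of both groups, with 77.8% and 84.2% of the tRNA's counts in hypoxia and 89.1% and 87.8% in normoxia. In replicate 1 it held 28.0% in hypoxia and 67.1% in normoxia.

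The second population started at 45 to 51 and ended at 65 to 67, before the last encoded bases. It comprised 21 sequences and reached 36526, 5272 and 3694 CPM in hypoxia, and 9889, 2160 and 1790 CPM in normoxia. Hypoxia exceeded its partner 3.69, 2.44 and 2.06-fold. The group ranges overlapped, since normoxia replicate 1 was above hypoxia replicates 2 and 3. Libraries numbered 1 were the highest in both groups, and hypoxia replicate 1 had a higher CPM than the other 5 libraries summed. As a part of the tRNA's counts, the population held 63.9%, 17.2% and 11.3% in hypoxia, and 26.4%, 7.69% and 7.68% in normoxia.

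**Figure D2:**
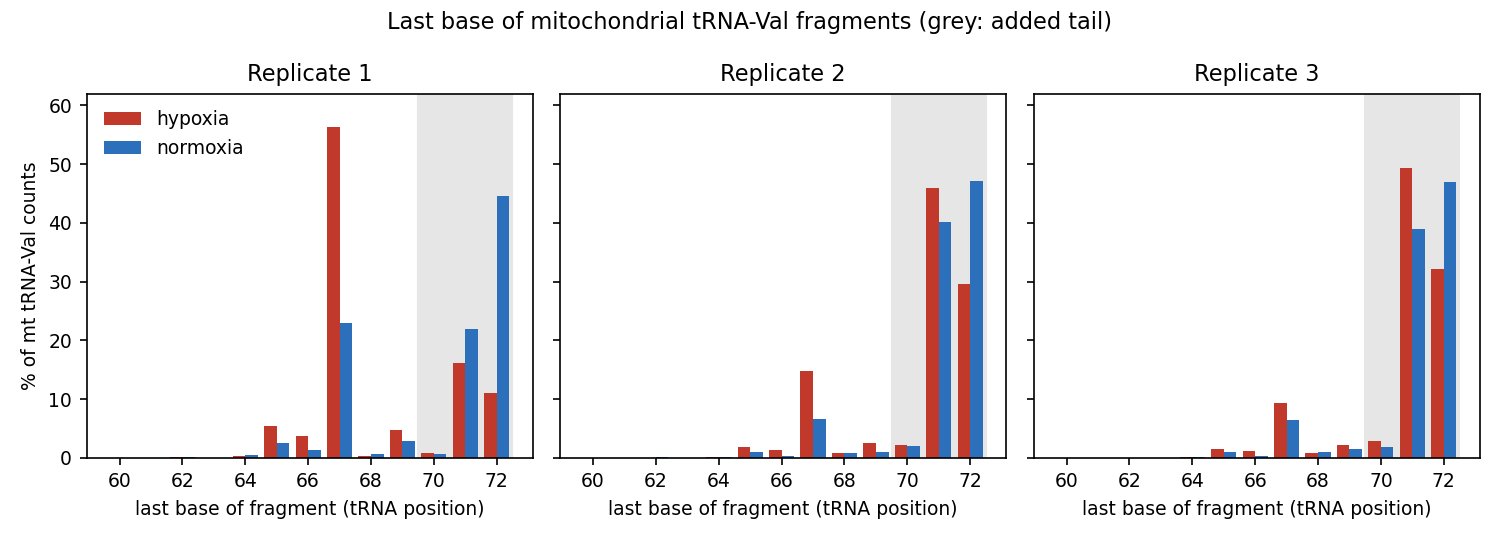
Last base of mitochondrial tRNA-Val fragments (x axis, tRNA position) as a percent of the tRNA's counts (y axis), 1 panel per replicate number with hypoxia bars left of normoxia bars; grey marks the added tail. In each pair the hypoxia library held less of its counts at position 72 and more at position 67.

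Single end positions differed in direction. Position 72, the full CCA, held 11.1%, 29.6% and 32.1% of the tRNA's counts in hypoxia, and 44.5%, 47.0% and 46.9% in normoxia, with no overlap. Position 71, the end in CC, held 16.1%, 46.0% and 49.3% in hypoxia, and 21.9%, 40.2% and 39.0% in normoxia, with overlap. Position 67 held 56.3%, 14.8% and 9.30% in hypoxia, and 22.96%, 6.53% and 6.52% in normoxia, also with overlap. Shares of 1 tRNA add up to its whole, so a rise of 1 position lowers the others.

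On the CPM scale, which does not have that constraint within the tRNA, ends at 72 gave 6329, 9066 and 10511 CPM in hypoxia, and 16657, 13209 and 10949 CPM in normoxia. Each hypoxia library was lower than every normoxia library, but the narrowest gap was 10511 against 10949 CPM. Levels here are scaled by library totals alone, and a gap this narrow may depend on the scaling. Ends at 71 gave 9218, 14090 and 16167 CPM in hypoxia, and 8193, 11278 and 9086 CPM in normoxia. Hypoxia was above its partner in each pair for ends at 71, and the groups overlapped. Ends at 65 to 67 together gave 37336, 5468 and 3888 CPM in hypoxia, and 10055, 2226 and 1850 CPM in normoxia.

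A limit of the table bears on the tail. No fragment of this tRNA that starts at position 54 or earlier holds a tail base, over 61780 counts, and its tail-bearing fragments were 15 to 18 nt long. Across all 22 mitochondrial tRNAs, the 92 sequences with 2 or 3 tail bases were at most 18 nt, while the 134 sequences with any tail base, 1 included, reached 45 nt. Nuclear tRNAs had 359 sequences ending in CCA of up to 45 nt, of which 174 were over 18 nt. Mitochondrial fragments ending on the last encoded base also reached 45 nt. Whether longer tail-bearing fragments were absent from the cells or were not assigned by the authors was not tested, so the completeness of the tail is given first among fragments with the same start.

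Among tail-bearing fragments that start at 56, those with the full CCA made up 39.4%, 35.7% and 35.4% in hypoxia, and 65.7%, 48.7% and 50.4% in normoxia. Among those that start at 55 the values were 35.0%, 41.0% and 40.9% in hypoxia, and 61.5%, 58.04% and 56.9% in normoxia. Among those that start at 57 they were 44.9%, 51.6% and 62.2% in hypoxia, and 76.8%, 82.9% and 73.3% in normoxia. At each of the 3 starts all hypoxia libraries were below all normoxia libraries. The means were 36.9% ± 2.21 in hypoxia and 54.9% ± 9.39 in normoxia at start 56, 39.0% ± 3.45 and 58.8% ± 2.38 at start 55, and 52.9% ± 8.74 and 77.7% ± 4.84 at start 57 (SD, n = 3 each, hypoxia before normoxia). Counting error was smaller than these gaps, since 95% Wilson intervals of single libraries reached at most 1.26 percentage points to either side at start 56, 2.44 at start 55 and 4.51 at start 57. Reads carry no molecular identifiers, so the intervals cover counting error only.

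**Figure D3:**
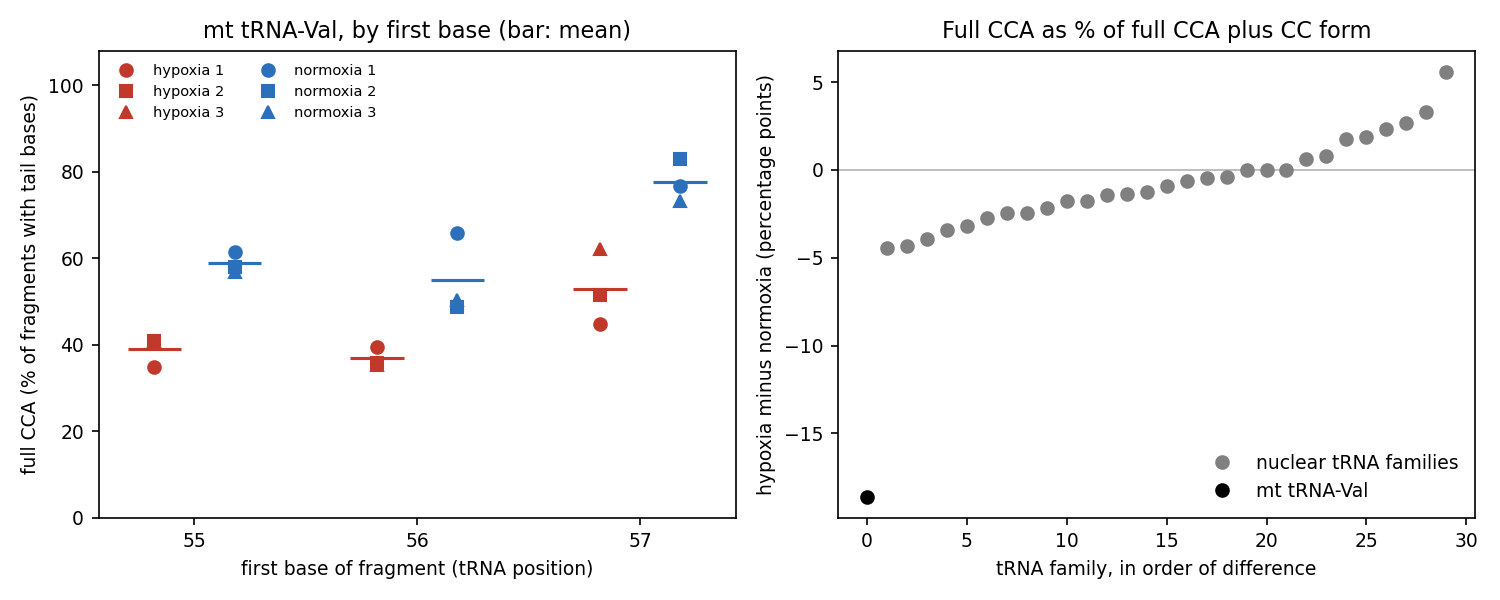
Left, percent of tail-bearing mitochondrial tRNA-Val fragments with the full CCA (y axis) by first base (x axis), 1 symbol per library. All hypoxia symbols lie below all normoxia symbols at 55, 56 and 57. The fragments starting at 57 also occur in another annotated transcript. Right, difference in the full-CCA share between group means (y axis, percentage points, hypoxia minus normoxia) for 30 tRNA families in rank order (x axis); mitochondrial tRNA-Val is at -18.6 and the 29 nuclear families lie between -4.46 and 5.58.

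To set this beside other tRNAs, each CCA-ending sequence of at least 16 nt was compared with the same sequence lacking the last A. At least 50 such counts in each library were available for 30 families, of which mitochondrial tRNA-Val was the only mitochondrial one. Its full-CCA share was 39.9%, 38.3% and 38.7% in hypoxia, and 66.1%, 53.0% and 53.6% in normoxia, a difference of -18.6 percentage points between means. In the 29 nuclear families the difference ran between -4.46 points (tRNA-Ser-GGA) and 5.58 points (tRNA-Arg-CCT), with a median of -0.905. It was lower in hypoxia in all 3 pairs in 4 of the 29, higher in all 3 pairs in 0, and the groups overlapped in each of the 29. Some of these families share sequences and are not independent. Mean full-CCA shares in normoxia were 68.4% (tRNA-Arg-ACG) to 91.5% (tRNA-Ala-CGC) in the nuclear families, against 57.6% in mitochondrial tRNA-Val. Percentage points from such unlike levels are not on an equal scale.

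Among the other mitochondrial tRNAs, tail-bearing fragments were few. tRNA-Trp-TCA (mt_tRNA-Trp-TCA) had at least 45 in each library, and the other 20 had 14 or fewer in at least 1 library. In tRNA-Trp-TCA the full CCA made up 18.6%, 16.7% and 12.9% of tail-bearing counts over all starts in hypoxia, and 31.1%, 28.03% and 19.5% in normoxia. As in tRNA-Val, all hypoxia libraries were below all normoxia libraries, at 0.599, 0.595 and 0.661 times their partners. Over all starts, tRNA-Val stood at 39.5%, 38.1% and 38.1% in hypoxia, and 66.4%, 52.8% and 53.5% in normoxia, or 0.596, 0.721 and 0.712 times. tRNA-Pro-TGG, with as few as 6 tail-bearing counts in a library, went the other way without overlap. It stood at 18.5%, 24.1% and 21.7% in hypoxia, and 16.7%, 13.4% and 10.3% in normoxia. Both tRNA-Trp-TCA and tRNA-Pro-TGG were singled out after their values were seen, and their fragments were not matched by start. In a wider window, ends within the last encoded bases or the tail, 4 mitochondrial tRNAs had at least 50 counts in each library. These were tRNA-Val, tRNA-Gly-TCC, tRNA-Glu-TTC and tRNA-Trp-TCA. The full-CCA share of this window was lower in hypoxia in all 3 pairs in each of the 4. The groups did not overlap in 1 of them, tRNA-Val. That window also holds fragments without a tail base.

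The 2 leading fragments illustrate the shift of the tail. Fragment 56-72, with the full CCA, had 4488, 6806 and 7836 CPM in hypoxia, and 12238, 9541 and 8162 CPM in normoxia. The groups did not overlap and hypoxia was lower, but the narrowest gap was 7836 against 8162 CPM. Fragment 56-71, without the last A, had 6542, 11688 and 13527 CPM in hypoxia, and 6261, 9616 and 7697 CPM in normoxia, higher in hypoxia in each pair but overlapping. The edgeR log2 difference was -0.56 (SE 0.57) for 56-72 and 0.44 (SE 0.65) for 56-71, here and below hypoxia over normoxia.

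The pair that starts 1 base earlier had the same order. Fragment 55-72 had 1226, 1379 and 1645 CPM in hypoxia, and 2833, 2172 and 1620 CPM in normoxia. It was lower in replicates 1 and 2 and about level in replicate 3, so that the groups overlapped, with a log2 difference of -0.57 (SE 0.51). Fragment 55-71 had 2176, 1873 and 2203 CPM in hypoxia, and 1651, 1459 and 1133 CPM in normoxia, with no overlap and a log2 difference of 0.58 (SE 0.48). Fragment 57-72 had 407.4, 562.1 and 720.6 CPM in hypoxia, and 931.1, 982.4 and 703.2 CPM in normoxia, with overlap and a log2 difference of -0.58 (SE 0.56). It is one of the 4 sequences that another annotated transcript also holds.

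**Figure D4:**
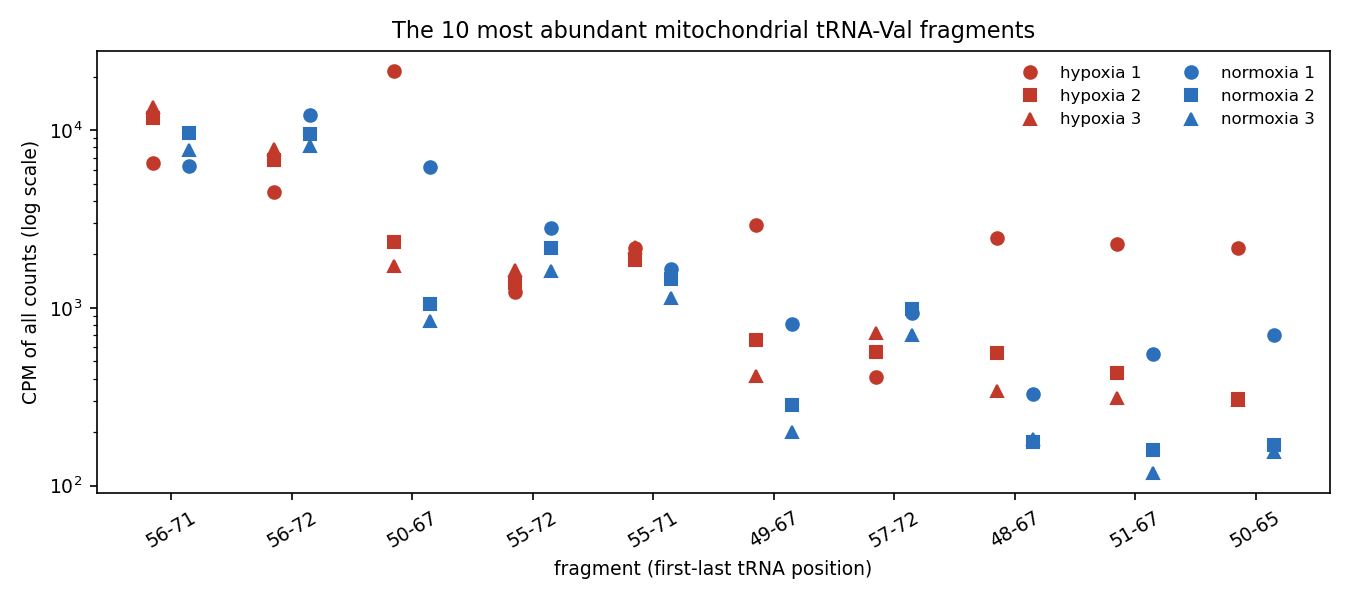
CPM of all counts (y axis, log scale) of the 10 most abundant mitochondrial tRNA-Val fragments, named by first and last position (x axis), 1 symbol per library with hypoxia left of normoxia. For the fragments ending at 65 or 67 the replicate 1 library is the highest of its group, in hypoxia and in normoxia, while 56-71 and 56-72 lie between 4488 and 13527 CPM in all libraries.

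Fragment 50-67 led the second population. It had 21598, 2366 and 1712 CPM in hypoxia, and 6182, 1054 and 843.1 CPM in normoxia. Each hypoxia library was above its partner, by 3.49, 2.24 and 2.03-fold, and the groups overlapped because both libraries numbered 1 were high. The log2 difference was 1.65 (SE 1.002) with the group alone, 1.32 (SE 0.26) with the replicate number as a block and 1.06 without replicate 1 in both groups. The group-only value moved when 1 library numbered 1 was left out alone. It was 0.098 without hypoxia replicate 1 and 2.63 without normoxia replicate 1.

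Its neighbours by start differed in the same direction. Fragment 48-67 had 2482, 558.6 and 339.0 CPM in hypoxia, and 329.5, 175.4 and 182.2 CPM in normoxia, and the groups did not overlap. Its log2 difference was 2.14 (SE 0.69), and 1.80 (SE 0.35) with the block. Fragment 49-67 had 2934, 661.1 and 414.2 CPM in hypoxia, and 810.2, 282.7 and 199.4 CPM in normoxia, with overlap. Fragment 51-67 had 2292, 432.2 and 311.0 CPM in hypoxia, and 547.2, 159.2 and 117.8 CPM in normoxia, with overlap. Without hypoxia replicate 1 the log2 difference was 1.24 for 48-67, 0.71 for 49-67 and 0.86 for 51-67, against 2.14, 1.58 and 1.84 with all libraries. These sequences differ by 1 to 3 bases at their 5' end and are not separate measurements of one event.

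Shorter forms starting at 50 were fewer. Fragment 50-65 had 2184, 308.1 and 302.8 CPM in hypoxia, and 707.4, 169.1 and 155.2 CPM in normoxia. Fragment 50-66 had 1451, 198.5 and 168.6 CPM in hypoxia, and 356.7, 48.2 and 38.0 CPM in normoxia. The fold between partners of 50-66 was close to equal over the pairs, at 4.07, 4.12 and 4.43, with a log2 difference of 2.09 (SE 0.99), or 2.06 (SE 0.33) with the block. The group-only value was 0.86 without hypoxia replicate 1 and 3.29 without normoxia replicate 1. Within starts 45 to 51, end 66 took 5.10%, 5.89% and 6.70% in hypoxia, and 4.68%, 3.37% and 3.76% in normoxia, and the groups did not overlap. End 67 took 81.5%, 73.7% and 68.4% in hypoxia, and 77.4%, 71.8% and 67.4% in normoxia.

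Fragments ending on the last encoded base, position 69, have the 3' end that ELAC2 leaves before CCA is added. Whether they arose in that way was not tested. Together they had 2670, 796 and 738 CPM in hypoxia, and 1046, 276 and 342 CPM in normoxia. Hypoxia exceeded its partner 2.55, 2.88 and 2.16-fold, and the groups overlapped through normoxia replicate 1. The class sum had a log2 difference of 1.29 (SE 0.42), and 1.29 (SE 0.20) with the block. The main forms were 50-69, with 826.6, 109.995 and 96.9 CPM in hypoxia and 396.0, 40.6 and 44.2 CPM in normoxia, and 55-69, with 195.9, 121.7 and 165.1 CPM in hypoxia and 108.8, 58.6 and 76.1 CPM in normoxia. The groups overlapped for 50-69 and did not overlap for 55-69.

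Fragment 53-69 had the widest gap among the fragments past the threshold with the block. It had 180.2, 31.6 and 29.8 CPM in hypoxia, and 24.2, 2.25 and 3.07 CPM in normoxia, and the groups did not overlap. The normoxia values rest on 8, 5 and 5 counts. Its log2 difference was 3.23 (SE 1.05), and 3.28 (SE 0.56) with the block.

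Fragments of the other parts of the tRNA were rare. The 5' end class made up 0.233%, 0.0637% and 0.0943% of the tRNA's counts in hypoxia, and 0.428%, 0.0787% and 0.179% in normoxia. Its main form, 1-35, ends on the last anticodon base and had 37.2, 8.97 and 2.92 CPM in hypoxia, and 45.3, 1.80 and 12.9 CPM in normoxia. The form 1-19 had 25.5, 0 and 12.8 CPM in hypoxia, and 42.3, 0.451 and 4.91 CPM in normoxia. Neither had a direction that held over the pairs. Fragment 36-66, singled out after its values were seen, starts just after the anticodon and was counted 8, 30 and 19 times in the hypoxia libraries and 0 times in all 3 normoxia libraries.

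By class, internal fragments gave 48045, 20746 and 21505 CPM in hypoxia, and 19538, 14564 and 11991 CPM in normoxia, without overlap. The CCA end class gave 6331, 9066 and 10511 CPM in hypoxia, and 16657, 13215 and 10950 CPM in normoxia. These groups did not overlap either, by a narrow margin in replicate 3. Over the 240 sums of a family and a class that were tested, groups did not overlap in 2.08% with hypoxia higher and in 3.33% with hypoxia lower. The log2 difference was 0.82 (SE 0.32) for internal fragments, -0.55 (SE 0.52) for the CCA end and -0.34 (SE 0.74) for the 5' end. The CCA end stood at -0.16 without hypoxia replicate 1, and the 5' end turned to 0.22 without normoxia replicate 1. None of the 4 class sums passed an adjusted p of 0.05 with the group alone or with the block, where 0.0% of the 240 sums passed. With the block and pair 2 left out, the internal and 3' end sums passed as higher, when 0.803% of 249 sums were called higher and 1.2% lower. With pair 3 left out, both passed as higher and the CCA end as lower, when 0.794% of 252 sums were called higher and 1.59% lower. Without replicate 1 in both groups the 3' end sum passed as higher, when 0.422% of 237 sums were called higher and 1.69% lower. The settings that leave out a pair, or replicate 1 in both groups, were chosen after the data were seen. The hypoxia and normoxia contrast chose the tRNA, so nothing is read from these calls.

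Fragments were short in every library. The mean length weighted by counts was 18.1, 17.0 and 16.9 nt in hypoxia, and 17.4, 16.8 and 16.9 nt in normoxia. Lengths of 15 to 18 nt held 79.8%, 91.1% and 93.8% of counts in hypoxia, and 90.7%, 95.8% and 94.5% in normoxia. At 17 nt, the length of 56-72, the share was 19.1%, 30.8% and 32.4% in hypoxia, and 40.04%, 40.1% and 40.9% in normoxia, with no overlap. At 18 nt, the length of 50-67, it was 40.4%, 12.7% and 10.5% in hypoxia, and 24.5%, 11.6% and 10.7% in normoxia.

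A filter on low counts left 71 of the 418 sequences, with 98.9% of the tRNA's counts, in a fit over 6452 tsRNAs. With the group alone, 0 of the 71 and 0 of the 6452 passed an adjusted p of 0.05 in edgeR, which is 0.0% of all tested in each direction, and DESeq2 and limma voom also called 0 of the 71. At an unadjusted p under 0.05, edgeR gave 7 of the 71 higher and 0 lower, against 0.279% and 0.418% of all 6452. With the replicate number as a block, 5 of the 71 passed, all higher in hypoxia (50-67, 48-67, 51-67, 50-66 and 53-69), against 0.0775% of all 6452 called higher and 0.0775% called lower. The count with the block depended on the pairs. It was 2 of 68 without pair 1, against 0.0923% of 6498 called higher and 0.308% lower. It was 0 of 65 without pair 2, against 0.0% of 7125 in each direction. It was 13 of 80 without pair 3, against 0.16% of 8114 called higher and 0.0986% lower. With DESeq2 size factors it was 6 of 71, against 0.093% of 6452 in each direction, and all called members were higher in hypoxia. Groups did not overlap with hypoxia higher for 12 of the 71, against 2.32% of all tested, and with hypoxia lower for 5, against 2.51%. The median log2 difference was 0.99 over the 71 and 0.02 over all 6452. The hypoxia and normoxia contrast chose the tRNA and the sequences overlap one another, so nothing is read from these counts.

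By role, the 15 tested fragments with starts 45 to 51 and ends 65 to 67 had log2 differences between 1.22 and 2.18. The 13 ending at 69 had between 0.93 and 3.23, and the 3 exact matches ending in CC of the tail between 0.44 and 0.99. The 4 ending in CCA had between -0.89 and -0.56. The 23 with starts up to 44 spread in both directions, between -2.04 and 7.12, and the highest of these is 36-66, which had no count in normoxia and whose fitted value is no bound.

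The tRNA's total was then set beside the other 21 mitochondrial tRNAs, the partners in the same translation system. Its log2 difference of 0.37 (SE 0.29; 0.38 with SE 0.14 under the block) was the highest of the 22, and 0.54 with DESeq2 size factors in place of the trimmed-mean scaling. In the group-only fit 0 of the other 21 passed, with 1 at an unadjusted p under 0.05, and 0.0% of the 73 families passed in either direction. With the block 0 were higher and 2 were lower, mitochondrial tRNA-Phe-GAA at -1.31 and tRNA-Gly-TCC at -0.81, against 4.11% of the 73 families called lower. Of the 21, 3 were above and 18 below 0 with a median of -0.26, but 10 were above 0 with DESeq2 size factors and a median of -0.05, so the direction of the group as a whole depends on the scaling. The median of all families was -0.07 in the first of these scalings and 0.11 in the second. The highest after tRNA-Val were tRNA-Glu-TTC at 0.19 and tRNA-Pro-TGG at 0.07, and the lowest beside tRNA-Phe-GAA, at -1.17 with the group alone, was tRNA-Gln-TTG at -0.85.

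**Figure D5:**
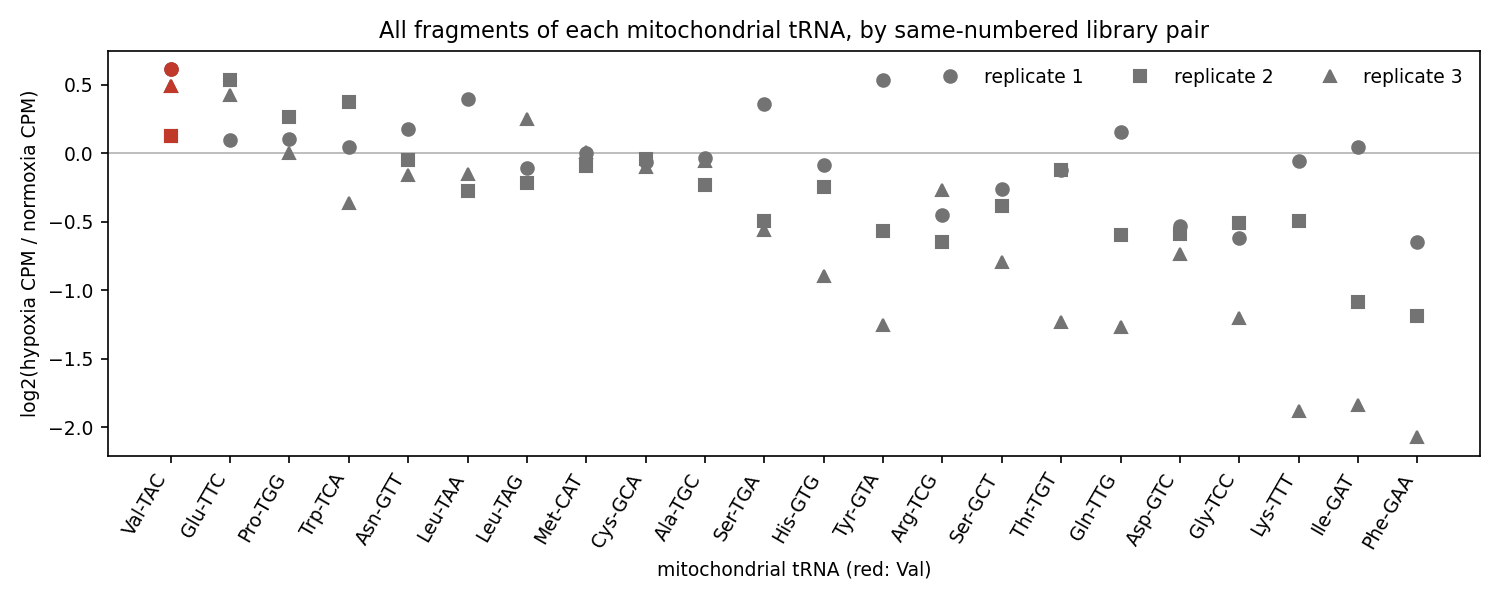
Log2 ratio of CPM (y axis, hypoxia over normoxia) of all fragments of each of the 22 mitochondrial tRNAs (x axis), 1 symbol per same-numbered pair of libraries. tRNA-Val, in red, is above 0 in all 3 pairs, as is 1 other, tRNA-Glu-TTC, while 10 are below 0 in all 3.

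In level per library, higher in all 3 pairs held for 1 of the other 21, tRNA-Glu-TTC, and lower in all 3 for 10, against 20.5% and 26.0% of the 73 families. Mitochondrial tRNA-Val also ranked first of the 22 in mean level, with 34899 CPM, before tRNA-Ser-GCT with 13188 CPM and tRNA-Gly-TCC with 11164 CPM. These levels count fragments and are not corrected for tRNA length. The other 2 gave different fragments, with 95.8% of tRNA-Ser-GCT counts in the 5' end class and 97.0% of tRNA-Gly-TCC counts internal. Ends just before the last encoded bases had at least 50 counts in every library for 1 other tRNA, tRNA-Glu-TTC. There they gave 562 ± 290 CPM in hypoxia and 192 ± 56.6 CPM in normoxia (SD, n = 3 each). The folds over the pairs were 3.49, 2.46 and 2.50, and the groups did not overlap, whereas they did in tRNA-Val.

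The nuclear counterparts carry the same amino acid in the cytosol. tRNA-Val-AAC averaged 52251 CPM in hypoxia and 53814 CPM in normoxia, tRNA-Val-CAC 55666 and 56541 CPM, and tRNA-Val-TAC 5562 and 4813 CPM, in each case hypoxia before normoxia. Their log2 differences were -0.10, -0.07 and 0.20. In contrast to the mitochondrial tRNA, 72.6%, 71.4% and 53.4% of their counts were 5' end fragments.

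The families whose log2 CPM over the 6 libraries was most like that of mitochondrial tRNA-Val were nuclear tRNA-Leu-AAG (Pearson r = 0.97), tRNA-Leu-TAG (0.97), tRNA-Ser-AGA (0.96), tRNA-Asp-GTC (0.91) and tRNA-Ser-TGA (0.91). Both libraries numbered 1 were the highest of their group in these families. Over the 4 libraries of replicates 2 and 3 the values were 0.98, 0.98, 0.98, 0.96 and 0.97 in the same order. The points share library depth and scaling, and no test was made.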

How the data were processed

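The deposited values are raw counts per sequence, not normalized, and per the submitters' processing notes the build is mm10. An aligner, a tRNA reference or a filter is not given in the sources used here. Members, lists and the end window at 65 to 67 were chosen with earlier results of these data known. Positions came from exact or 1-mismatch matches to mt-Tv with CCA. RNAfold 2.7.2 gave the fold. CPM divides by each library's total and multiplies by 1e+06. edgeR 4.0.16 in R 4.3.3 (quasi-likelihood, TMM, filterByExpr, Benjamini-Hochberg over all features) was fitted to 6452 tsRNAs, 73 families and 240 family-by-class sums, with the group alone. DESeq2 1.42.0, limma 3.58.1 voom, other scalings and filters, the replicate block and each library left out were alternatives. Family sums count a sequence once for each family assigned. The SE of an edgeR log2 difference was its absolute value over the square root of the F statistic. The fits were run on simulated counts with large changes, a single common dispersion and a built-in pairing by replicate number. That setting differs from these data, so it does not show how well the fits work here. Within each replicate number, the deviations from the group means correlated at 0.81, 0.53 and 0.45, so the replicate numbers, from the sample titles, were taken as pairs. For replicates 2 and 3 alone this was -0.03, so the pairing rests on replicate 1. Named fragments were the 10 most abundant, the 2 most abundant of each class, those past the threshold and, for positions, those with at least 3% of counts. Named families were the 5 most correlated (log2 of CPM plus 0.5), the 2 highest and 2 lowest mitochondrial tRNAs, those past the threshold, and nuclear tRNA-Val. Python 3.11.15, pandas 2.3.3, SciPy 1.17.1 and matplotlib 3.10.9 were used.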

Additional observations from a re-analysis of the deposited data

How the results depend on the processing

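The replicate block changed the number of called fragments from 0 to 5. Further settings were chosen after seeing the data. Blocked fits gave 2 without pair 1, 0 without pair 2, 13 without pair 3 and 6 with DESeq2 size factors (the shares of all tsRNAs and sums called in them stand in the report), and leaving out both libraries numbered 1 gave 0 with the group alone. Leaving out single libraries gave 0 to 0. The class sums passed the threshold for internal fragments with the block without pair 2 (log2 1.12) or pair 3 (0.87), for the 3' end without CCA in those settings (1.28 and 1.40) and without replicate 1 in both groups (1.27), and for the CCA end with the block without pair 3 (-1.004). With single libraries left out, these sums stayed at 0.68 to 1.03, 1.01 to 1.56 and -0.85 to -0.16, the family total at 0.25 to 0.51 and the difference in full-CCA share of ends 64 to 72, a window that also holds fragments without a tail base, at -26.4 to -15.9 points (-22.5 with all).

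Several values moved when a single library numbered 1 was left out, which leaves the other such library in its group. Without hypoxia replicate 1 alone, the log2 ratio of mean CPM ending at 65 to 67 was -0.0099 (up to 2.93 with others left out, 1.72 with all libraries). Fragment 50-69 was then at -0.065 (up to 2.50) and the difference in mean length at -0.12 nt (up to 0.50). With both libraries numbered 1 left out, fragment 50-69 was at 1.25, against 1.17 with all. Ends at 65 to 67 were 2.46-fold higher in hypoxia in pair 2 and 2.10-fold in pair 3. Counting each distinct sequence once gave a length difference of 1.93 nt. Without normoxia replicate 1 the 5' end class reversed, with log2 -0.91 to 0.22 and a share difference of -0.17 to 0.0015 points over libraries left out. Fragment 1-35 ranged over -1.18 to 0.63, with 0.27 in voom and 0.013 and 0.89 with the block without pair 1 or 3. Fragment 1-19 ranged over -0.58 to 1.80, with 0.20 unfiltered, 0.030 with the block and 0.35 with the block without pair 2. The causes were not tested. The full-CCA share for starts up to 54 gave no value, since no tail base was counted there.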
